A study of Mus musculus with 4 samples.

Results

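Hypoxic spots of MC38 tumor sections, 1182 of the 11798 spots with at least 5000 UMIs (11947 spots lay under tissue), were compared with the 5900 spots at the low end of the same score. Each spot of a Visium slide captures the RNA of the small tissue region above it, usually several cells, and a UMI (unique molecular identifier) marks 1 captured RNA molecule. For every spot the UMIs of 6 genes, Car9, Ndrg1, Bnip3, Vegfa, Adm and Ankrd37, were added and divided by its total UMIs. The top 10% of spots in each section were called hypoxic, the lower 50% served as comparison spots and the 4716 spots between them as intermediate. The members were thus chosen by a transcript score, and oxygen itself was not measured. Each of the 4 sections came from a separate tumor of MC38, a transplantable colon cancer line from C57BL/6 mice, in female hosts of 8 to 12 weeks of age that carried it subcutaneously. A pair of hosts, CC075F1, had the parents C57BL/6J and CC075/UncJ, and tumors in this cross are described in the study as responding to anti-PD-1. The other pair, CC080F1, had the parents C57BL/6J and CC080/TauUncJ, a cross described as not responding. All 4 hosts had received a single injection of 200 µg isotype control antibody and their tumors were taken 48 hours later, so no section carries a checkpoint treatment, and each strain is represented by 2 tumors of a single transplanted line.

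Cells short of oxygen stabilise hypoxia-inducible factors (HIFs), transcription factors whose α subunit is otherwise hydroxylated by the prolyl hydroxylases of the Egln family and handed to the Vhl ubiquitin ligase. Stabilised HIF pairs with Arnt and binds a short core motif near genes for glucose uptake, glycolysis, lactate export, pH control, mitophagy, collagen hydroxylation and vessel growth. Of the defining genes, Car9 encodes a carbonic anhydrase at the cell surface, Bnip3 a mitophagy receptor, Vegfa the main vascular growth factor, Adm the vasodilator peptide adrenomedullin, Ndrg1 a stress-induced differentiation gene and Ankrd37 an ankyrin-repeat protein. In tumors, low oxygen lies where perfused vessels are distant or sparse.

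In what follows, 4 values in a row belong to CC075F1 replicate 1, CC075F1 replicate 2, CC080F1 replicate 1 and CC080F1 replicate 2. The numbers of hypoxic spots were 266, 326, 277 and 313, out of 2652, 3252, 2769 and 3125 kept spots. The lowest hypoxic spots scored 768, 814, 755 and 1096 CPM, which scales UMIs to the total of the spot (further on, to the total of the class in a section), and the highest intermediate spots 764, 812, 754 and 1091 CPM, so members just inside and just outside the limit were nearly alike. The median score of the kept spots was 261, 225, 246 and 285 CPM. A hypoxic spot held a median of 37, 58, 39 and 39 UMIs of the 6 genes and a comparison spot 5, 4, 5 and 6, so single spots rest on few molecules and every value below comes from UMIs summed over a class and section.

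**Figure D1:**
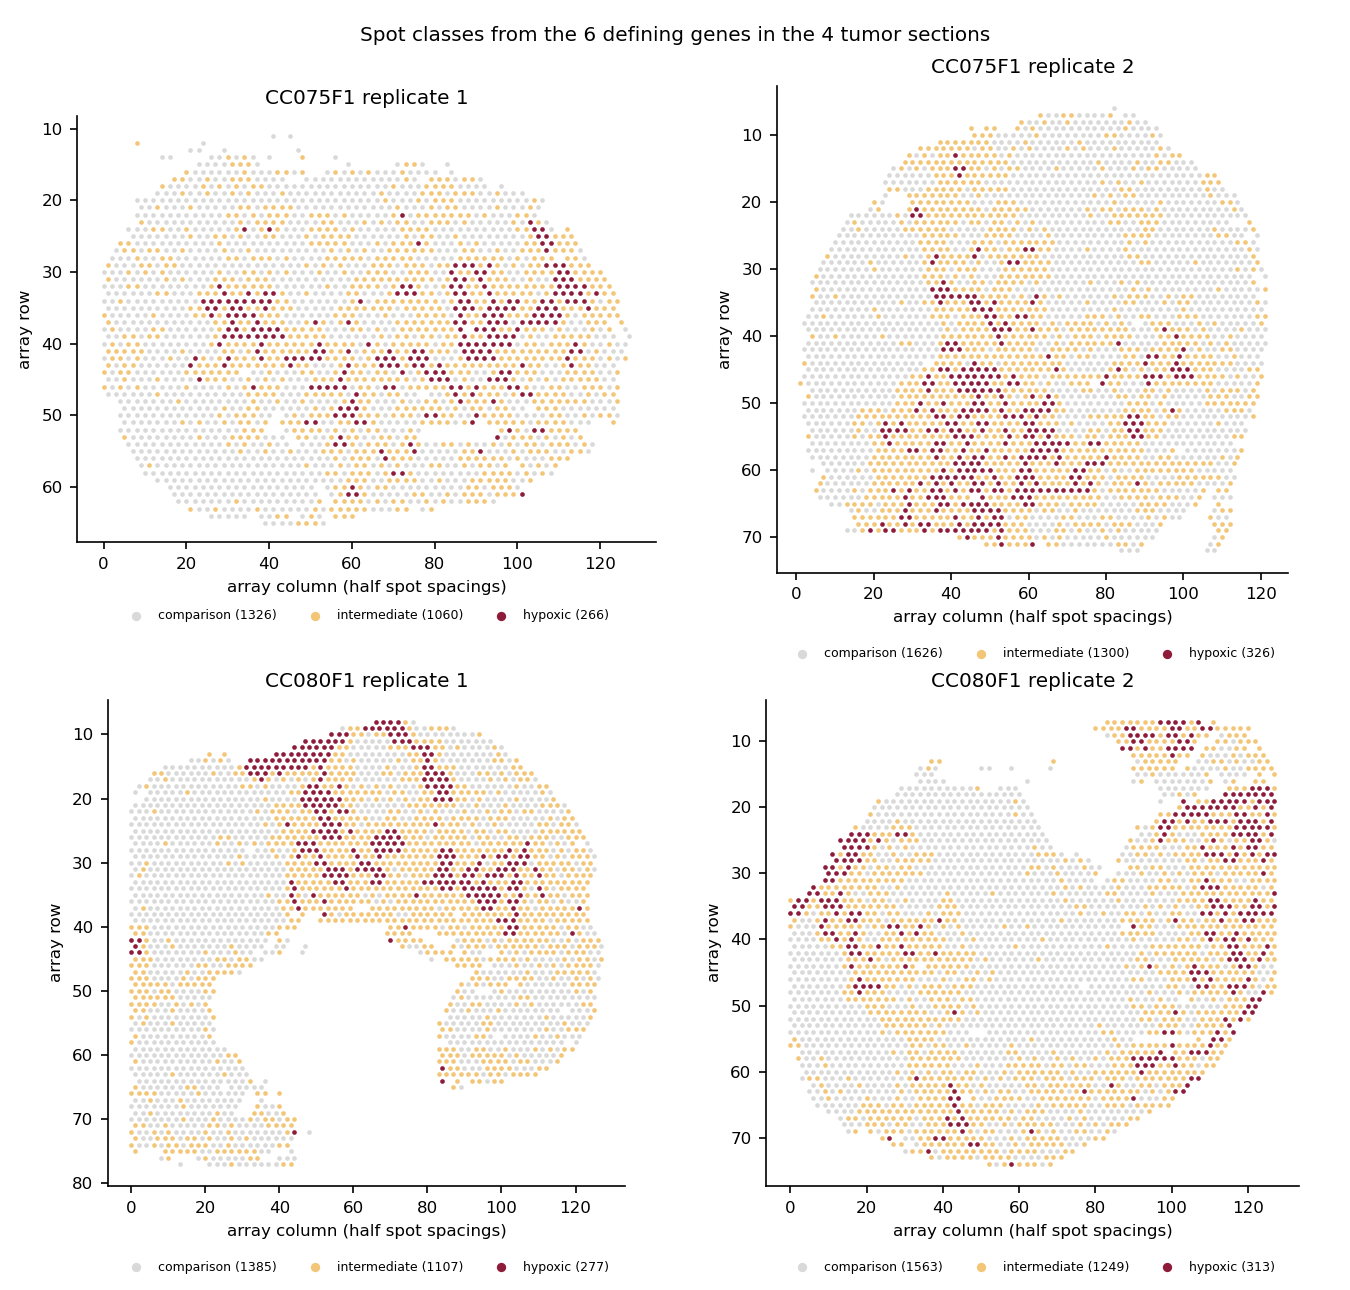
Spots of the 4 sections at their array positions (row against column), coloured by class: hypoxic (266, 326, 277 and 313 spots), intermediate and comparison. Hypoxic spots sit in patches, inside the tissue in CC075F1 and partly along the border in CC080F1.

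The 6 genes moved together even when each was taken out of the score that chose the spots. With Car9 left out, its own CPM was 13.3, 17.9, 20.6 and 28.8 times higher in hypoxic than in comparison spots. The same ratio was 8.65, 9.98, 15.2 and 11.6 for Bnip3 and 6.75, 7.74, 11.2 and 11.9 for Ankrd37. It was 4.21, 4.97, 4.45 and 5.62 for Ndrg1, 5.49, 2.65, 5.14 and 5.59 for Adm and 2.56, 2.38, 3.62 and 3.46 for Vegfa, all above 1 in the 4 sections. These ratios are a description, since the remaining 5 genes chose the spots. With all 6 genes in the score, Bnip3 stood at 512, 514, 479.7 and 577 CPM in hypoxic spots and 34.9, 29.3, 20.4 and 33.6 CPM in comparison spots, and Vegfa at 202, 98.7, 281 and 222 CPM in hypoxic spots and 62.2, 33.2, 59.9 and 50.7 CPM in comparison spots. Over all kept spots the 6 genes together made up 370.5, 384, 362 and 426 CPM, and the strains could not be separated on this level (exact permutation test, two-sided, p = 1, where 2 sections against 2 cannot go below 0.333).

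Hypoxic spots lay beside other hypoxic spots. Among the grid neighbours of hypoxic spots, 47.6, 46.6, 60.2 and 45.6% were themselves hypoxic, against 6.06, 6.06, 4.50 and 5.89% among the neighbours of all other spots. They formed 42, 46, 25 and 58 connected groups, the largest of which held 96, 186, 84 and 65 spots. Position in the section differed between tumors. The share of hypoxic spots within 3 grid steps of a position off tissue was 4.89, 9.51, 26.0 and 29.4%, and that of comparison spots 25.5, 24.2, 27.9 and 17.4%. In both CC075F1 sections the hypoxic spots thus lay away from the edge, and in CC080F1 replicate 2 toward it. In CC080F1 replicate 1 the difference was -1.88 percentage points, -11.3 with an edge of 5 steps and 6.66 with the top 5% of spots. The mean difference of -6.30 percentage points (SD 14.5, n = 4) gave p = 0.375 in an exact sign-flip permutation test, two-sided, which cannot go below 0.125 with 4 sections, and the mean was -12.5 percentage points with an edge of 5 steps.

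Depth did not move one way with the class. The median UMIs per spot were 34034, 57277, 35556 and 26670 in hypoxic and 30946, 35397, 35220 and 38217 in comparison spots. The log2 ratio of these medians was 0.14, 0.69, 0.01 and -0.52, with a mean of 0.08 (SD 0.50, exact sign-flip permutation test p = 0.625), and it came to -0.12 without CC075F1 replicate 2. Mitochondrially encoded RNA took 1.68, 1.66, 1.95 and 1.85% of the UMIs of hypoxic and 2.29, 1.68, 2.48 and 2.07% of those of comparison spots, lower in hypoxic spots of every section. The summed classes held 8892814 to 18821440 UMIs (hypoxic) and 41082256 to 65498959 UMIs (comparison). The sections share 1666 spot barcodes, which are addresses on the slide grid and not cells.

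Across the transcriptome, hypoxic and comparison spots differed in a large part of the genes. Leaving out the 6 defining genes, 13586 genes were tested on the sums per class and section with the section as a block (edgeR's quasi-likelihood test, Benjamini-Hochberg adjustment, n = 4 sections), and 5381 passed an adjusted p of 0.05, which is 39.6% of those tested. Of these, 2744 (20.2%) were higher and 2637 (19.4%) lower in hypoxic spots, 353 and 565 of them by over 2-fold, with a median of -0.000727 on the log2 scale over all genes tested. In 5225 of the called genes all 4 sections had the same sign, and in 2686 the intermediate spots lay between the other classes in every section. The CPM of the classes did not overlap at all over the 4 sections for 2027 genes (14.9%). Fold changes here use TMM scaling, under which the typical gene does not move. On plain library size the median gene moved by -0.27 and the calls split into 995 higher and 6088 lower (14.0% higher, against 51.0% with TMM), so a small rise under TMM can turn negative there, and changes are read relative to the typical gene. CPM values in the text are on plain library size. With the class of a spot taken from the 6 genes in its neighbouring spots alone, its own counts unused, 2343 genes were higher and 2150 lower, and the 4287 genes also called above all kept their sign. With every spot thinned to 5000 UMIs and reclassed the counts were 970 and 734, and without the section block 495 and 401.

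The genes that rose most included a glucose transporter, an endoplasmic reticulum oxidase and a collagen prolyl hydroxylase, all of them known HIF targets, next to stress-response genes. Slc2a1, the glucose transporter GLUT1 (chr4:119108711-119137983 on GRCm38), stood at 271, 330.3, 398 and 477 CPM in hypoxic spots and 34.6, 36.8, 37.7 and 39.9 CPM in comparison spots. Its lowest hypoxic value was above its highest comparison value, and it was 11.7-fold higher (log2 fold change 3.55 ± 0.11 SE, adjusted p = 6.1e-08). Ero1l, the oxidase that helps proteins form disulfide bonds (chr14:45283087-45318771), stood at 381, 389.6, 408 and 599.9 CPM in hypoxic spots and 56.9, 46.4, 47.8 and 58.2 CPM in comparison spots and was 10.1-fold higher (log2 fold change 3.34 ± 0.11 SE, adjusted p = 1.1e-07). P4ha2, a subunit of collagen prolyl 4-hydroxylase (chr11:54100095-54131665), stood at 59.8, 37.8, 61.5 and 86.0 CPM in hypoxic spots and 6.50, 8.89, 6.85 and 11.6 CPM in comparison spots and was 8.499-fold higher (log2 fold change 3.09 ± 0.13 SE, adjusted p = 2.7e-07). For all 3 the classes were fully separated. Mgarp, a mitochondrial protein gene, rose 7.77-fold from 9.23, 6.41, 5.77 and 5.09 to 41.7, 35.0, 49.4 and 42.6 CPM. Nos2, the inducible nitric oxide synthase, rose 7.69-fold, and 4930447F24Rik, a gene without a named function, rose 7.22-fold, both without overlap of the classes.

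**Figure D2:**
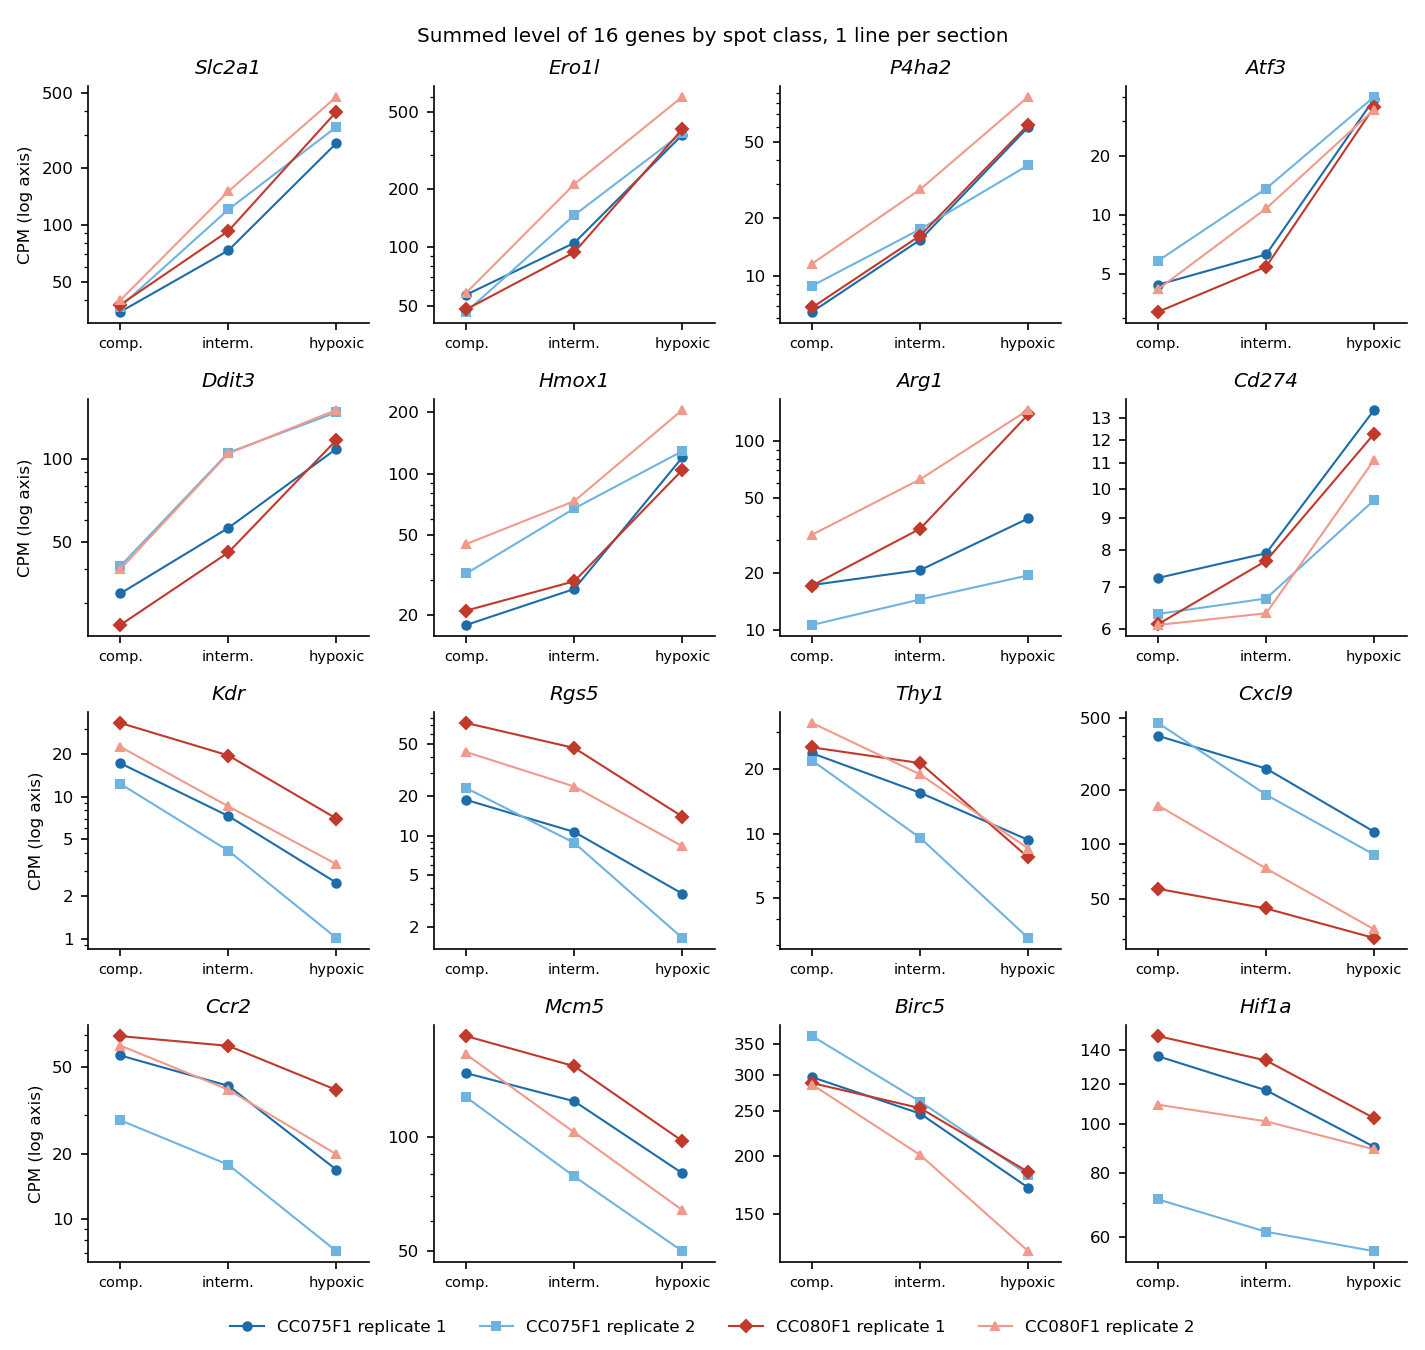
CPM (log axis) of 16 genes in the summed comparison, intermediate and hypoxic spots, with 1 line for each section. The upper 8 genes climb from comparison to hypoxic spots in every section and the next 7 decline in every section. Hif1a declines on this scale, and it passed the test on plain library size but not with TMM scaling.

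Known hypoxia targets that the score did not use rose as a group. Of 33 listed genes 31 could be tested, 26 rose and none fell, with a median log2 fold change of 1.80 (20.2% of all genes rose). Summed, they reached 4026, 3592, 4079 and 4891 CPM in hypoxic spots and 1397, 1168, 1311 and 1364 CPM in comparison spots. Fam162a, a mitochondrial protein of hypoxic cell death, stood at 989, 1052, 753 and 1028 CPM in hypoxic spots and 261, 259, 183 and 228 CPM in comparison spots and was 4.95-fold higher (log2 fold change 2.31 ± 0.08 SE, adjusted p = 1.3e-07). Higd1a, which associates with the respiratory chain under low oxygen, was 3.64-fold higher (log2 fold change 1.87 ± 0.09 SE, adjusted p = 7.1e-07). Vldlr, a lipoprotein receptor, was 6.07-fold higher (log2 fold change 2.60 ± 0.13 SE, adjusted p = 8.9e-07). With the class taken from neighbouring spots alone, 26 of 31 rose with a median of 1.67. Egln1, Egln3, Slc16a3 and Pgf are in this list and are counted again in lists below.

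The glycolytic pathway rose nearly from end to end. Of its 20 listed genes, which include the glucose transporter Slc2a1, 18 rose and none fell (median 1.38). The sums were 18809.7, 16847, 16543 and 18507 CPM in hypoxic spots and 9003, 8174, 7106 and 8435 CPM in comparison spots. Hk2, the hexokinase that traps glucose in the cell, stood at 34.7, 17.2, 47.2 and 32.8 CPM in hypoxic spots and 10.7, 6.58, 11.8 and 8.05 CPM in comparison spots and was 4.12-fold higher (log2 fold change 2.04 ± 0.09 SE, adjusted p = 4.9e-07). Aldoa, the aldolase that splits fructose bisphosphate, stood at 1496, 1314, 1311 and 1544 CPM in hypoxic spots and 498, 428, 347 and 478 CPM in comparison spots and was 3.91-fold higher (log2 fold change 1.97 ± 0.08 SE, adjusted p = 2.4e-07). Both were separated between the classes in all sections. Gapdh, often used as a reference gene, was 2.29-fold higher (log2 fold change 1.20 ± 0.08 SE, adjusted p = 5.7e-06). Further down the pathway, Eno2, an enolase, rose 3.93-fold and Pkm, the pyruvate kinase, 1.90-fold. From neighbouring spots alone, 18 of 20 rose (median 1.40).

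Lactate leaves cells through Slc16a3 (MCT4), which stood at 114, 75.2, 140.1 and 119 CPM in hypoxic spots and 37.3, 39.8, 45.7 and 42.8 CPM in comparison spots and was 3.19-fold higher (log2 fold change 1.67 ± 0.08 SE, adjusted p = 5.6e-07). Slc16a1 (MCT1), which can also import lactate, had a log2 fold change of -0.10 (adjusted p = 0.21). Of the 11 genes for acid, lactate and adenosine handling, 2 rose and 4 fell (20.2% and 19.4% of all genes). Besides Slc16a3 the one that rose was Slc4a7, a bicarbonate transporter, at 0.26 (adjusted p = 0.021), a call that turned to -0.0044 on plain library size and -0.0544 after thinning, and was lost in other alternatives too. Gpr65, a proton-sensing receptor of immune cells, fell 1.98-fold and Entpd1 (CD39), which breaks down extracellular ATP, passed as 1.33-fold lower, a call lost among interior spots, after thinning and without CC075F1 replicate 1, CC075F1 replicate 2 or CC080F1 replicate 2.

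Genes of the machinery that senses oxygen went both ways, with 4 of 11 genes tested higher and 2 lower (20.2% and 19.4% of all genes). Egln3, a prolyl hydroxylase that is itself a HIF target, stood at 58.8, 33.2, 71.1 and 54.6 CPM in hypoxic spots and 17.9, 8.38, 13.1 and 8.92 CPM in comparison spots and was 5.47-fold higher (log2 fold change 2.45 ± 0.13 SE, adjusted p = 1.3e-06). Egln1, the main oxygen sensor, was 3.55-fold higher (log2 fold change 1.83 ± 0.07 SE, adjusted p = 2.5e-07). The classes did not overlap for either gene. Egln2, the third hydroxylase, was at -0.09 (adjusted p = 0.34). Vhl, which marks HIF for breakdown, was 1.39-fold higher (log2 fold change 0.48 ± 0.07 SE, adjusted p = 8.9e-04), and its call was lost on plain library size. Hif1a, which encodes the HIF-1α subunit regulated mainly at the protein level, stood at 90.2, 56.2, 103 and 89.1 CPM in hypoxic spots and 136, 71.0, 149 and 109 CPM in comparison spots, with a log2 fold change of -0.18 (adjusted p = 0.15), and on plain library size it was at -0.44 (adjusted p = 0.0015). Epas1, which encodes HIF-2α and is abundant in endothelial cells, was 5.35-fold lower (log2 fold change -2.42 ± 0.19 SE, adjusted p = 1.5e-05). Among partners and cofactors, Arnt was at 0.30 (adjusted p = 0.036), Arnt2 at -0.71 (adjusted p = 0.13), Hif1an, the asparaginyl hydroxylase, at -0.25 (adjusted p = 0.021), Cul2 at 0.09 (adjusted p = 0.42) and Rbx1 at -0.11 (adjusted p = 0.14). The Arnt call was lost in DESeq2, with the top 20% of spots, after thinning and without any 1 section but CC075F1 replicate 1, and on plain library size Arnt was at 0.03 (adjusted p = 0.81). The Hif1an call was lost in DESeq2, with the top 5%, after thinning and without any 1 section but CC075F1 replicate 2. Hif3a had too few UMIs to be tested.

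The HIF core motif was sought in the 250 bases before the RefSeq start of each gene (GRCm38.p6), as the letters ACGTG or GCGTG on either strand, with overlapping matches on both strands counted apart. At least 1 match was present in 15 of the 21 promoters found for the hypoxia targets that rose (71.4%), in 12 of 18 glycolytic genes that rose, and in 6 of 10 of the 12 largest rises. The share was 38.6% over all 27025 promoters, 56.0% over the genes tested, 62.2% over the genes called higher, 54.5% over those called higher by over 2-fold, 52.5% over those called lower and 40.2% over those called lower by over 2-fold. Where RefSeq lists several starts of a gene, as for Aldoa, Pkm, Ldha, Eno1 and Ak4, the promoter listed first was used, and the counts depend on that choice. The median GC content was 64% in the promoters of the hypoxia targets and 59.6% over the genes tested, and these counts are a description with no test. Printed below, 5′ to 3′ on the strand of the gene and ending 1 base before the start, are 6 genes of the HIF response that rose and Hspa1a, the largest rise, for contrast, with every match in capitals. They lie at chr4:119108495-119108744 (plus strand) for Slc2a1, chr11:54100674-54100923 (plus) for P4ha2, chr16:36071562-36071811 (minus) for Fam162a, chr6:82774455-82774704 (minus) for Hk2, chr11:120948817-120949066 (plus) for Slc16a3, chr12:54203875-54204124 (minus) for Egln3 and chr17:34972157-34972406 (minus) for Hspa1a. The P4ha2 and Slc16a3 windows lie within the GENCODE genes, whose starts are upstream of the RefSeq ones, and the last bases of the Slc2a1 and Fam162a windows overlap the GENCODE genes. The other 3 windows lie wholly upstream.
Slc2a1: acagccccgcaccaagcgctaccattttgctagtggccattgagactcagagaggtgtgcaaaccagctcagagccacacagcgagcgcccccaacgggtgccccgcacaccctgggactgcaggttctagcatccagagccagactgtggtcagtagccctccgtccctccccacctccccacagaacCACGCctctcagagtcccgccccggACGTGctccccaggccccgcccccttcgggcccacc
P4ha2: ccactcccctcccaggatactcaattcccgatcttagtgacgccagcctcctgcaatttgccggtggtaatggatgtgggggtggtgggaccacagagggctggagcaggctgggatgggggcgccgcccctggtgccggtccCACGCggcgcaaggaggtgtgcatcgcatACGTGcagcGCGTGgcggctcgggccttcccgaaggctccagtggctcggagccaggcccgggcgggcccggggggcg
Fam162a: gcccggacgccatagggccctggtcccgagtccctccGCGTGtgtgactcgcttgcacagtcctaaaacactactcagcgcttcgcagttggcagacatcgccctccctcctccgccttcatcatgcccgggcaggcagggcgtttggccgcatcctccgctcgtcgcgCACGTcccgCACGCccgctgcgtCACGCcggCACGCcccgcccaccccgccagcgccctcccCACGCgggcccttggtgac
Hk2: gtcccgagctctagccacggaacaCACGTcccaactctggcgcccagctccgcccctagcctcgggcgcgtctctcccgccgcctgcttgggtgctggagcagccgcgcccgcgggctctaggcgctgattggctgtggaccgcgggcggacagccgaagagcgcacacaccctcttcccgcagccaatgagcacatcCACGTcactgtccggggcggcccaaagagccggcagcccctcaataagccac
Slc16a3: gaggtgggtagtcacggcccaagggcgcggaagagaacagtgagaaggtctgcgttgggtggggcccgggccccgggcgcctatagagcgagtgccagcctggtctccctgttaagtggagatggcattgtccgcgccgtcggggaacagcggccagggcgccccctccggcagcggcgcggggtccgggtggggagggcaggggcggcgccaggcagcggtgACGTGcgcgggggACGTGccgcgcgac
Egln3: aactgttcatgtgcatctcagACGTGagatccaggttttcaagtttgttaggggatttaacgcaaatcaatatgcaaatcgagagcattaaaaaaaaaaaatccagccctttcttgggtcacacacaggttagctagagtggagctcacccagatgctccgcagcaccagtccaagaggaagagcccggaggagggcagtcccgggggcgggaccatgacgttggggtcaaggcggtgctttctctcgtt
Hspa1a: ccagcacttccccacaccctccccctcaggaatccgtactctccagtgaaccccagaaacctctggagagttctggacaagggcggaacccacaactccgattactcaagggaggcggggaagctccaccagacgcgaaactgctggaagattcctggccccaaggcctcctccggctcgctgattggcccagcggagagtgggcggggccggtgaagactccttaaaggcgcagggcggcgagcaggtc
Fam162a held 6 matches, P4ha2 3, Slc2a1, Hk2 and Slc16a3 2 each, and Egln3 1. Hspa1a held none in this window. The printed genes do not stand for their lists: Hilpda, Vldlr, Gys1, Gbe1, Aldoa, Pkm, Tpi1 and Eno2 also rose and held none. A match is a stretch of letters and not a measured binding site.

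Mitochondrial genes did not follow glycolysis. Of 16 genes of the TCA cycle and pyruvate dehydrogenase 2 rose and 7 fell (median -0.13, against 20.2% and 19.4% of all genes). Ogdh, a subunit of the oxoglutarate dehydrogenase, stood at 44.4, 27.3, 51.4 and 42.7 CPM in hypoxic spots and 75.3, 52.0, 78.3 and 76.5 CPM in comparison spots and was 1.43-fold lower (log2 fold change -0.52 ± 0.06 SE, adjusted p = 1.4e-04). Idh3a, of the NAD-linked isocitrate dehydrogenase, was 1.29-fold lower (log2 fold change -0.37 ± 0.06 SE, adjusted p = 0.001), and Fh1, the fumarase, 1.24-fold lower (log2 fold change -0.32 ± 0.07 SE, adjusted p = 0.005). Cs, the citrate synthase at the entry of the cycle, was at -0.15 (adjusted p = 0.072). Of the 13 genes encoded in mitochondrial DNA 1 rose and 5 fell (20.2% and 19.4% of all genes). mt-Nd1, a subunit of complex I, stood at 364, 240.2, 536 and 386 CPM in hypoxic spots and 871, 591, 1122 and 753 CPM in comparison spots and was 1.84-fold lower (log2 fold change -0.88 ± 0.07 SE, adjusted p = 2.5e-05), mt-Nd3 was 1.78-fold lower (log2 fold change -0.83 ± 0.08 SE, adjusted p = 4.1e-05), and mt-Co1, of complex IV, was 1.43-fold higher (log2 fold change 0.52 ± 0.15 SE, adjusted p = 0.021), a call lost in DESeq2, among interior spots, on plain library size and without CC080F1 replicate 2.

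Nuclear genes of the respiratory chain stayed with the typical gene on the scale used here, with a median of 0.01. Of 76 genes 8 were higher and 12 lower (20.2% and 19.4% of all genes). On plain library size the median was -0.25, with 4 higher and 61 lower. Of those named, Ndufv3, a complex I subunit, changed most, at 298, 245, 243 and 250.1 CPM in hypoxic spots and 182, 174, 152 and 158 CPM in comparison spots, 1.87-fold higher (log2 fold change 0.90 ± 0.05 SE, adjusted p = 2.6e-06). Cox7a2l, which helps join complexes III and IV, was 1.52-fold higher (log2 fold change 0.61 ± 0.08 SE, adjusted p = 2.8e-04), Atp5g2, of the ATP synthase ring, 1.40-fold higher (log2 fold change 0.49 ± 0.08 SE, adjusted p = 0.0011), and Ndufa6 1.37-fold higher (log2 fold change 0.45 ± 0.07 SE, adjusted p = 6.5e-04). The abundant Cox6c and Atp5b were at 0.05 (adjusted p = 0.58) and -0.11 (adjusted p = 0.24).

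Stress genes moved by different amounts. The integrated stress response, in which blocked translation start favours the factor Atf4 and its targets for amino acid supply, rose in 15 of 17 genes with none lower (median 1.04, and 15 of 17 from neighbouring spots alone). Atf3, an early stress factor, stood at 38.9, 39.9, 35.4 and 34.3 CPM in hypoxic spots and 4.43, 5.86, 3.23 and 4.20 CPM in comparison spots and was 10.2-fold higher (log2 fold change 3.35 ± 0.09 SE, adjusted p = 5.2e-08). Ddit3 (CHOP) stood at 109, 148, 118 and 151 CPM in hypoxic spots and 32.5, 40.9, 25.01 and 39.9 CPM in comparison spots and was 4.62-fold higher (log2 fold change 2.21 ± 0.08 SE, adjusted p = 1.7e-07), Trib3, a pseudokinase below it, was 4.56-fold higher (log2 fold change 2.19 ± 0.11 SE, adjusted p = 6.4e-07), and Ppp1r15a, which restores translation, 3.64-fold higher (log2 fold change 1.86 ± 0.08 SE, adjusted p = 4.6e-07). Atf4 itself, which is controlled largely by translation, was 1.72-fold higher (log2 fold change 0.78 ± 0.07 SE, adjusted p = 2.5e-05). None of these overlapped between the classes. The chaperone arm of endoplasmic reticulum stress did not share this pattern, with 3 of 15 genes higher and 5 lower (20.2% and 19.4% of all genes). Herpud1 was at 0.48 (adjusted p = 3.1e-04), Calr at -0.34 (adjusted p = 0.002), Creld2 at -0.38 (adjusted p = 0.0014) and Hsp90b1 at 0.11 (adjusted p = 0.2).

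Heat shock and oxidative stress genes were among the largest rises. Hspa1a, an inducible HSP70, stood at 29.8, 31.0, 6.90 and 51.3 CPM in hypoxic spots and 0.755, 1.02, 0.393 and 1.22 CPM in comparison spots and was 41.4-fold higher (log2 fold change 5.37 ± 0.16 SE, adjusted p = 6.1e-08), the largest rise by the rule used to name genes. Its near-identical neighbour Hspa1b stood at 32.6, 46.7, 17.2 and 62.0 CPM in hypoxic spots and 4.62, 2.64, 4.59 and 5.27 CPM in comparison spots and was 10.9-fold higher (log2 fold change 3.45 ± 0.31 SE, adjusted p = 4.4e-05), and reads of the pair may be split between them. Both were lowest in the hypoxic spots of CC080F1 replicate 1. Of 13 genes for metal and oxidative stress 8 rose and 1 fell. Hmox1, which breaks down heme, stood at 120.1, 129, 104 and 206 CPM in hypoxic spots and 17.96, 32.2, 21.1 and 44.9 CPM in comparison spots and was 5.93-fold higher (log2 fold change 2.57 ± 0.08 SE, adjusted p = 1.0e-07). The metallothioneins Mt1 and Mt2, which bind zinc and copper, rose 5.25-fold and 6.24-fold, with Mt1 at 2101, 4504, 2719.7 and 5063 CPM in hypoxic spots and 671, 898, 676 and 881 CPM in comparison spots. Sqstm1, an autophagy receptor, rose 2.15-fold, and the ferritin genes Fth1 and Ftl1 rose 1.42-fold and 1.54-fold with overlapping classes. Ier3, an immediate early gene, rose 8.73-fold from 4.72, 12.9, 12.97 and 8.25 to 32.6, 91.5, 61.1 and 94.7 CPM.

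Ribosomal protein genes rose while cell cycle genes fell. Of 78 cytosolic ribosomal protein genes 74 rose and 1 fell (median 0.60, 0.33 with 69 higher and 2 lower on plain library size). They took 307301, 413749, 283376 and 343544 CPM in hypoxic spots and 258486, 317925, 234081 and 265930 CPM in comparison spots, so they make up a large share of all UMIs. Rpl13a rose 1.83-fold and Rps7 1.78-fold. Genes of DNA replication fell in 25 of 25 (median -0.68). Rrm2, which makes deoxyribonucleotides, stood at 64.4, 48.3, 97.4 and 62.1 CPM in hypoxic spots and 140.5, 134, 175 and 161 CPM in comparison spots and was 1.91-fold lower (log2 fold change -0.94 ± 0.07 SE, adjusted p = 1.7e-05). Mcm5, of the replicative helicase, stood at 80.2, 49.996, 97.5 and 64.1 CPM in hypoxic spots and 147, 127, 184 and 165 CPM in comparison spots and was 1.81-fold lower (log2 fold change -0.86 ± 0.07 SE, adjusted p = 2.5e-05), and Ung, a uracil glycosylase, was 2.18-fold lower (log2 fold change -1.12 ± 0.11 SE, adjusted p = 5.6e-05). Of 22 genes of mitosis 20 fell (median -0.45), among them Kif20a (1.65-fold lower), Birc5 or survivin (1.56-fold lower), Plk1 (1.54-fold lower) and Top2a (1.24-fold lower). Ube2c was at -0.05 (adjusted p = 0.54).

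**Figure D3:**
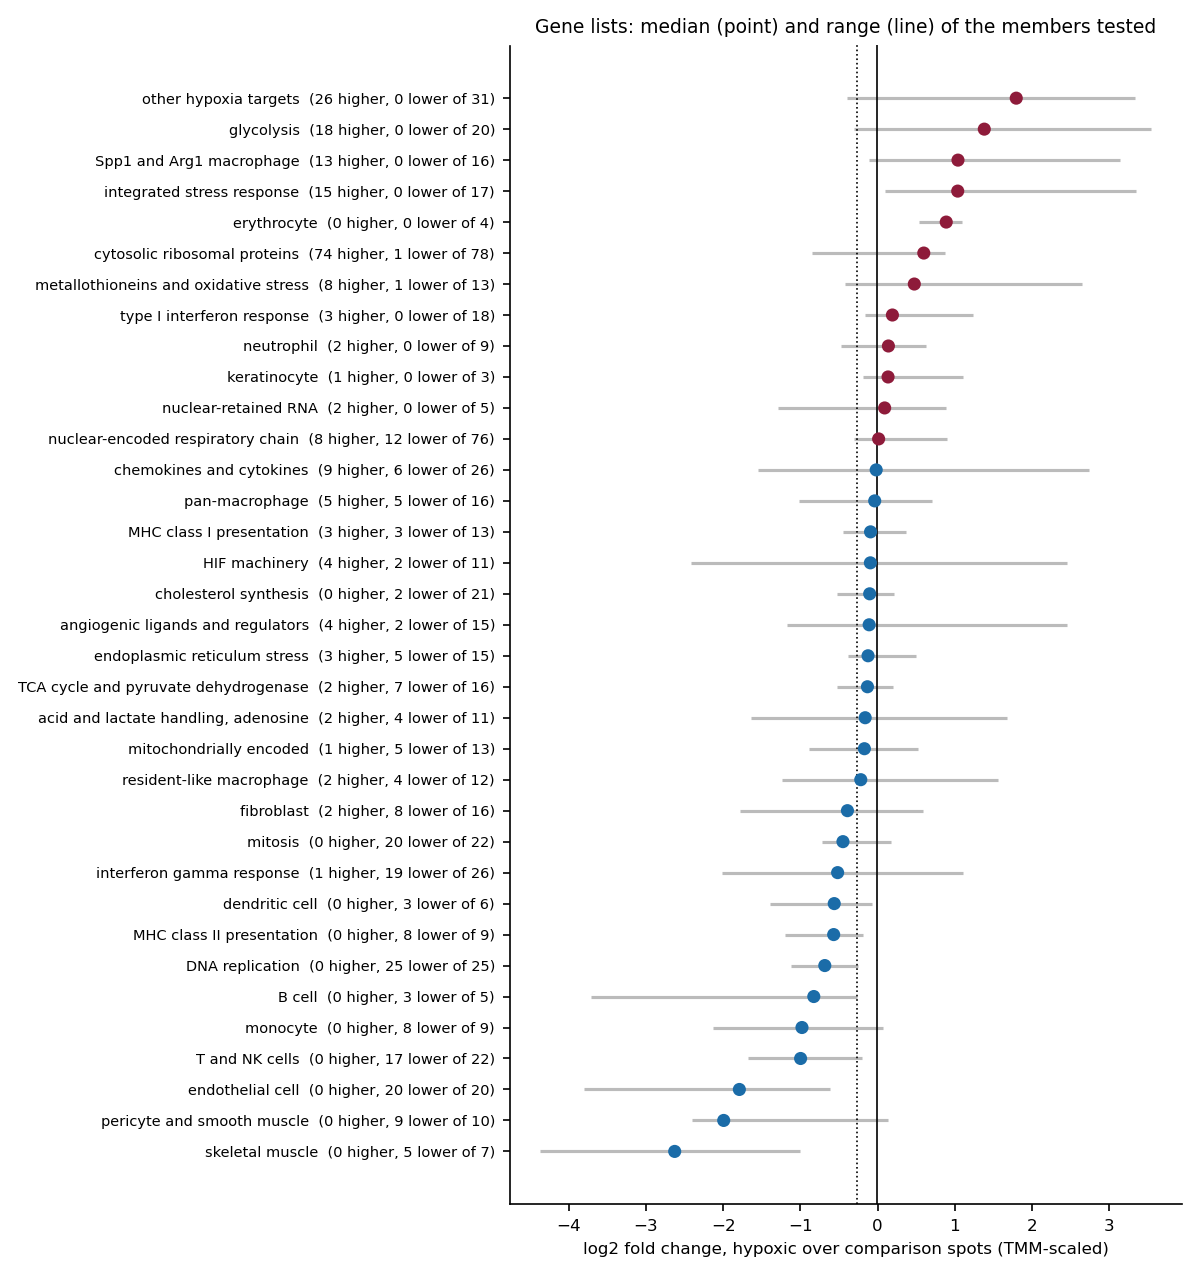
Median (point) and range (line) of the log2 fold change of hypoxic over comparison spots for the gene lists with at least 3 genes tested, with the counts called higher and lower. The solid line is the median of all genes tested (-0.000727) and the dotted line the same median on plain library size (-0.27). Hypoxia targets and glycolysis stand at the top, skeletal muscle, pericyte and endothelial lists at the bottom.

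Vessel genes fell in every case or nearly so. All 20 endothelial genes tested fell (median -1.79, against 19.4% of all genes), as did 18 of 20 when neighbouring spots set the class (median -1.49). Summed, they made up 84.8, 54.1, 172 and 113 CPM in hypoxic spots and 295, 256, 474 and 369 CPM in comparison spots. Because a spot is a region, fewer cells of a type and less RNA per cell cannot be told apart in these and the following lists. Kdr (VEGFR2), the receptor through which Vegfa acts, stood at 2.47, 1.01, 7.01 and 3.34 CPM in hypoxic spots and 17.2, 12.3, 33.0 and 22.4 CPM in comparison spots and was 5.60-fold lower (log2 fold change -2.49 ± 0.15 SE, adjusted p = 2.5e-06). Plvap, which forms the diaphragms of fenestrae, stood at 7.08, 5.21, 15.0 and 11.1 CPM in hypoxic spots and 38.6, 32.0, 60.6 and 45.6 CPM in comparison spots and was 3.97-fold lower (log2 fold change -1.99 ± 0.09 SE, adjusted p = 5.6e-07). Emcn, of venous and capillary endothelium, was 4.97-fold lower (log2 fold change -2.31 ± 0.19 SE, adjusted p = 2.0e-05) and Mmrn2 4.64-fold lower (log2 fold change -2.21 ± 0.18 SE, adjusted p = 2.3e-05). Podxl, which is not in the endothelial list, was 4.45-fold lower (log2 fold change -2.15 ± 0.22 SE, adjusted p = 8.9e-05). All 5 were lower in 4 of 4 sections without overlap of the classes. Flt1 (VEGFR1), which also binds Pgf, fell 2.25-fold, and Eng, a TGF-β coreceptor, 1.91-fold.

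The cells that wrap vessels gave the same picture. Of 10 pericyte and smooth muscle genes 9 fell (median -1.99). Rgs5, a pericyte marker, stood at 3.60, 1.65, 14.0 and 8.31 CPM in hypoxic spots and 18.8, 23.1, 72.9 and 43.7 CPM in comparison spots and was 5.30-fold lower (log2 fold change -2.41 ± 0.16 SE, adjusted p = 4.8e-06). Notch3, the mural cell Notch receptor, was 4.07-fold lower (log2 fold change -2.02 ± 0.24 SE, adjusted p = 2.1e-04) and Acta2, smooth muscle actin, 3.91-fold lower (log2 fold change -1.97 ± 0.17 SE, adjusted p = 2.8e-05). Cspg4 (NG2), the one that did not pass, was at 0.13 (adjusted p = 0.33). Outside this list, Mgp, an inhibitor of calcification, stood at 1.91, 4.57, 5.36 and 3.95 CPM in hypoxic spots and 30.2, 76.1, 36.4 and 34.2 CPM in comparison spots and at 9.25-fold lower (log2 fold change -3.21 ± 0.16 SE, adjusted p = 7.3e-07) was the largest fall by the naming rule. Also outside it, Mest, an imprinted gene of mesoderm, was 7.89-fold lower (log2 fold change -2.98 ± 0.14 SE, adjusted p = 6.4e-07), Serpine2, a protease inhibitor, 4.27-fold lower (log2 fold change -2.09 ± 0.19 SE, adjusted p = 4.3e-05), and Col15a1, a collagen of basement membranes, 5.22-fold lower (log2 fold change -2.38 ± 0.21 SE, adjusted p = 3.7e-05). Which cells made Mgp, Mest, Serpine2 and Col15a1 was not tested.

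Ligands and regulators of vessel growth did not move as a group, with 4 of 15 higher and 2 lower (median -0.11, against 20.2% and 19.4% of all genes higher and lower). The receptor Flt1, given above with the endothelial genes, is in this list too. Pgf, placental growth factor, stood at 6.18, 8.66, 8.55 and 17.2 CPM in hypoxic spots and 1.51, 2.56, 2.13 and 2.40 CPM in comparison spots and was 5.47-fold higher (log2 fold change 2.45 ± 0.18 SE, adjusted p = 1.2e-05). Vegfb and Vegfc, of the same family, rose 1.33-fold and 1.25-fold, calls lost on plain library size. Pdgfb, which recruits pericytes and is made largely by endothelium, fell 1.32-fold, a call lost among interior spots.

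Matrix genes were divided. Of 16 fibroblast genes 2 rose and 8 fell (median -0.39, against 20.2% and 19.4% of all genes). Postn (periostin) stood at 8.43, 3.67, 21.9 and 28.5 CPM in hypoxic spots and 38.3, 69.4, 54.0 and 54.6 CPM in comparison spots and was 3.33-fold lower (log2 fold change -1.73 ± 0.37 SE, adjusted p = 0.0047). Bgn (biglycan) was 3.44-fold lower (log2 fold change -1.78 ± 0.46 SE, adjusted p = 0.012). Col1a2, of type I collagen, was 3.10-fold lower (log2 fold change -1.63 ± 0.57 SE, adjusted p = 0.043), with a comparison value of 290.2 CPM in CC075F1 replicate 2, and the call was lost in DESeq2, from neighbouring spots, and without CC075F1 replicate 1 or CC080F1 replicate 1. Dcn (decorin) went the other way, at 624, 413, 651 and 958 CPM in hypoxic spots and 486, 334, 526 and 759 CPM in comparison spots, 1.51-fold higher (log2 fold change 0.59 ± 0.07 SE, adjusted p = 1.5e-04). Col3a1, the most abundant of the list, was at -0.21 (adjusted p = 0.38). Among genes outside the fibroblast list, Fn1 (fibronectin) was 1.81-fold higher (log2 fold change 0.86 ± 0.08 SE, adjusted p = 7.3e-05).

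Lymphocyte genes fell. Of 22 T and NK cell genes 17 fell and none rose (median -0.996, and 16 of 22 fell from neighbouring spots alone). Their sum was 84.3, 56.9, 33.9 and 60.6 CPM in hypoxic spots and 166, 205, 66.9 and 142 CPM in comparison spots. Thy1, a T cell surface protein also found on some stromal cells, stood at 9.33, 3.24, 7.73 and 8.51 CPM in hypoxic spots and 23.8, 22.0, 25.3 and 32.9 CPM in comparison spots and was 3.19-fold lower (log2 fold change -1.67 ± 0.15 SE, adjusted p = 3.4e-05). Lck, the kinase of T cell receptor signalling, stood at 2.59, 0.956, 1.13 and 1.52 CPM in hypoxic spots and 8.11, 6.37, 2.63 and 5.10 CPM in comparison spots and was 3.11-fold lower (log2 fold change -1.64 ± 0.21 SE, adjusted p = 3.1e-04). Trac, the T cell receptor α constant gene, was 2.92-fold lower (log2 fold change -1.55 ± 0.27 SE, adjusted p = 0.0016), Klrk1 (NKG2D) 2.82-fold lower (log2 fold change -1.50 ± 0.19 SE, adjusted p = 2.8e-04) and Nkg7, of cytotoxic granules, 1.80-fold lower (log2 fold change -0.85 ± 0.14 SE, adjusted p = 0.001). Of 5 B cell genes tested 3 fell (19.4% of all genes fell). They included Ighm, at 15.5, 6.11, 18.5 and 6.28 CPM in hypoxic spots and 34.7, 32.3, 47.0 and 28.3 CPM in comparison spots, 2.76-fold lower (log2 fold change -1.47 ± 0.15 SE, adjusted p = 8.4e-05).

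Genes induced by IFN-γ, a cytokine of T and NK cells, fell in 19 of 26 with 1 higher (median -0.52, and 19 of 26 fell from neighbouring spots alone). Cxcl9, the chemokine that draws Cxcr3-bearing T cells, stood at 118, 87.9, 30.4 and 33.9 CPM in hypoxic spots and 399, 469.7, 56.9 and 164 CPM in comparison spots and was 3.04-fold lower (log2 fold change -1.61 ± 0.17 SE, adjusted p = 1.0e-04). Both CC075F1 sections held more of it than the CC080F1 sections in either class, so the classes overlap across sections although hypoxic spots were lower in each. Iigp1, an immunity-related GTPase, was 2.45-fold lower (log2 fold change -1.295 ± 0.13 SE, adjusted p = 6.4e-05), Ciita, the switch of MHC class II genes, 2.29-fold lower (log2 fold change -1.20 ± 0.17 SE, adjusted p = 4.9e-04), and Cxcl10 1.45-fold lower (log2 fold change -0.53 ± 0.09 SE, adjusted p = 0.0014). The exception was Cd274, which encodes the checkpoint ligand PD-L1 and is known to respond to HIF as well as to IFN-γ. It stood at 13.4, 9.62, 12.3 and 11.1 CPM in hypoxic spots and 7.23, 6.34, 6.10 and 6.09 CPM in comparison spots, separated in all sections, and was 2.15-fold higher (log2 fold change 1.10 ± 0.10 SE, adjusted p = 3.1e-05). After thinning the Cd274 call was lost, at a log2 fold change of 0.52 (adjusted p = 0.17).

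MHC class II genes fell in 8 of 9 (median -0.57). Cd74, the invariant chain, stood at 1741, 922, 227 and 207 CPM in hypoxic spots and 2334, 2008, 311 and 517 CPM in comparison spots and was 1.48-fold lower (log2 fold change -0.56 ± 0.12 SE, adjusted p = 0.0047), H2-Ab1 was 1.59-fold lower (log2 fold change -0.67 ± 0.10 SE, adjusted p = 7.9e-04) and H2-DMa 1.53-fold lower (log2 fold change -0.62 ± 0.13 SE, adjusted p = 0.0043). MHC class I presentation had 3 genes higher and 3 lower of 13 (20.2% and 19.4% of all genes), and on plain library size 0 higher and 10 lower. B2m was 1.29-fold higher (log2 fold change 0.37 ± 0.09 SE, adjusted p = 0.0075), a call lost on plain library size. H2-D1 and H2-K1, the class I heavy chains, were at 0.24 (adjusted p = 0.034) and 0.23 (adjusted p = 0.042), and at -0.03 and -0.04 on plain library size. Both calls were also lost after thinning, with the top 20% and without any 1 section but CC080F1 replicate 2. That of H2-K1 was lost from neighbouring spots too. The immunoproteasome gene Psmb10 was 1.36-fold lower (log2 fold change -0.44 ± 0.07 SE, adjusted p = 8.6e-04) and Psmb8 was at -0.01 (adjusted p = 0.87).

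Lists of myeloid genes went different ways. Of the 16 genes listed for Spp1 and Arg1 macrophages 13 rose and none fell (median 1.04, and 13 of 16 from neighbouring spots alone), with sums of 1847, 1899, 2097 and 2899 CPM in hypoxic spots and 1012, 1087, 1133 and 1524 CPM in comparison spots. Hmox1 and Fn1 belong to this list too and are also made by other cells. A spot usually holds several cells, and which cells carried the rise of the list was not tested. Lgals3 (galectin-3) stood at 494, 672, 333 and 492 CPM in hypoxic spots and 161, 236, 91.7 and 137 CPM in comparison spots and was 3.92-fold higher (log2 fold change 1.97 ± 0.07 SE, adjusted p = 1.3e-07). Arg1, which breaks down arginine, stood at 38.9, 19.4, 139 and 147 CPM in hypoxic spots and 17.2, 10.6, 17.1 and 31.9 CPM in comparison spots and was 4.41-fold higher (log2 fold change 2.14 ± 0.27 SE, adjusted p = 2.9e-04). Mmp12, the macrophage elastase, stood at 23.7, 15.8, 55.3 and 56.6 CPM in hypoxic spots and 16.2, 3.68, 2.21 and 2.63 CPM in comparison spots and was 8.79-fold higher (log2 fold change 3.14 ± 0.57 SE, adjusted p = 0.0021). Il7r, a lymphocyte receptor gene also induced in macrophages, was 3.95-fold higher (log2 fold change 1.98 ± 0.15 SE, adjusted p = 1.0e-05).

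Monocyte genes fell in 8 of 9 (median -0.98, and 8 of 9 from neighbouring spots alone). Ccr2, the receptor that brings monocytes out of the marrow, stood at 16.9, 7.12, 39.3 and 19.9 CPM in hypoxic spots and 56.6, 28.5, 69.4 and 62.8 CPM in comparison spots and was 2.38-fold lower (log2 fold change -1.25 ± 0.14 SE, adjusted p = 1.3e-04). Ly6c2, the marker of classical monocytes, was 2.47-fold lower (log2 fold change -1.31 ± 0.28 SE, adjusted p = 0.0047), Plac8 1.97-fold lower (log2 fold change -0.98 ± 0.23 SE, adjusted p = 0.0073) and Ms4a4c 1.86-fold lower (log2 fold change -0.90 ± 0.14 SE, adjusted p = 9.2e-04). Genes shared by macrophages split evenly, with 5 of 16 higher and 5 lower (median -0.04, against 20.2% and 19.4% of all genes). Their sum was lower in hypoxic spots of each section, at 7089, 4234, 4742 and 4438 CPM against 7508, 7195, 4962 and 5574 CPM. Cx3cr1, the fractalkine receptor, was 2.03-fold lower (log2 fold change -1.02 ± 0.14 SE, adjusted p = 4.0e-04), Aif1 1.70-fold lower (log2 fold change -0.77 ± 0.09 SE, adjusted p = 1.6e-04), and Csf1r 1.42-fold lower (log2 fold change -0.51 ± 0.14 SE, adjusted p = 0.014), a call lost in DESeq2 and without CC080F1 replicate 2, while Cd14, the LPS coreceptor, was 1.63-fold higher (log2 fold change 0.70 ± 0.08 SE, adjusted p = 2.0e-04). The abundant Lyz2 and Apoe were at -0.16 (adjusted p = 0.2) and 0.25 (adjusted p = 0.05).

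Of 12 genes of resident-like macrophages 2 rose and 4 fell (20.2% and 19.4% of all genes). F13a1, a coagulation factor chain, was 2.94-fold higher (log2 fold change 1.56 ± 0.21 SE, adjusted p = 3.9e-04), Mrc1 (CD206) was 1.61-fold lower (log2 fold change -0.69 ± 0.11 SE, adjusted p = 0.0011), Stab1 1.49-fold lower (log2 fold change -0.57 ± 0.14 SE, adjusted p = 0.01) and Gas6 1.86-fold lower (log2 fold change -0.89 ± 0.30 SE, adjusted p = 0.037). The Stab1 call was lost without CC080F1 replicate 2 and that of Gas6 in several alternatives. Of 9 neutrophil genes 2 rose and none fell, close to the 20.2% of all genes that rose, and on plain library size 0 rose and 1 fell. One of the pair was Mmp9 at 0.41 (adjusted p = 5.6e-04), a call lost on plain library size. Dendritic cell genes fell in 3 of 6 (19.4% of all genes fell). Among them Batf3, a factor of cross-presenting cells, was 1.98-fold lower (log2 fold change -0.98 ± 0.21 SE, adjusted p = 0.0044). Chemokines and cytokines went both ways, with 9 of 26 higher and 6 lower (20.2% and 19.4% of all genes). Mif, a macrophage cytokine and HIF target, stood at 2251, 2834, 2001 and 2239 CPM in hypoxic spots and 1140.1, 1416, 909 and 1102 CPM in comparison spots and was 2.46-fold higher (log2 fold change 1.301 ± 0.08 SE, adjusted p = 2.2e-06). Il1rn, the IL-1 receptor antagonist, was 2.48-fold higher (log2 fold change 1.31 ± 0.18 SE, adjusted p = 5.1e-04), Ccl8 was 2.93-fold lower (log2 fold change -1.55 ± 0.14 SE, adjusted p = 3.3e-05), and Cxcl12, of stroma, 2.40-fold lower (log2 fold change -1.27 ± 0.25 SE, adjusted p = 0.003).

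Cells from outside the tumor were looked for in the same way. Of 7 skeletal muscle genes tested 5 fell, but the summed level was 13.7, 8.61, 16.3 and 5.27 CPM in hypoxic spots and 13.6, 358, 27.0 and 8.84 CPM in comparison spots, so the fall rests largely on the comparison spots of CC075F1 replicate 2. Mylpf, a myosin light chain of fast fibres, stood at 1.01, 1.43, 3.19 and 0.608 CPM in hypoxic spots and 1.48, 49.2, 3.70 and 1.20 CPM in comparison spots and had a log2 fold change of -2.58, a call lost without that section. Des (desmin), present in muscle and pericytes, followed with -2.37, a call lost in DESeq2. The 2 adipocyte genes tested both passed as lower, Car3 at 0.112, 0.106, 0.309 and 0.507 CPM in hypoxic spots and 0.243, 10.9, 2.71 and 2.67 CPM in comparison spots and Cfd at 0.337, 0.0531, 0.309 and 0.304 CPM in hypoxic spots and 0.536, 0.886, 4.65 and 5.62 CPM in comparison spots, levels that rest on a few UMIs in hypoxic spots. Of 4 erythrocyte genes none passed, with Hbb-bs at 4.95, 415, 102 and 19.96 CPM in hypoxic spots and 14.1, 70.6, 58.2 and 85.6 CPM in comparison spots, and 1 of 3 keratinocyte genes passed, Sbsn at 1.11 (adjusted p = 0.0054), a call lost with depth-matched spots. Of the tumor cell markers, Shisal2b stood at 92.0, 158, 102 and 175 CPM in hypoxic spots and 168, 283, 129 and 283 CPM in comparison spots and was 1.34-fold lower (log2 fold change -0.42 ± 0.08 SE, adjusted p = 0.0023), Krt7 at 0.01 (adjusted p = 0.99) rests on very few UMIs, and Krt18 is listed at 0. Nuclear-retained RNAs had 2 of 5 higher (20.2% of all genes). They were Neat1 at 0.89 (adjusted p = 2.6e-04) and Malat1 at 0.80 (adjusted p = 0.0088), the latter call lost on plain library size. What these cells contribute to the other lists was not tested.

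**Figure D4:**
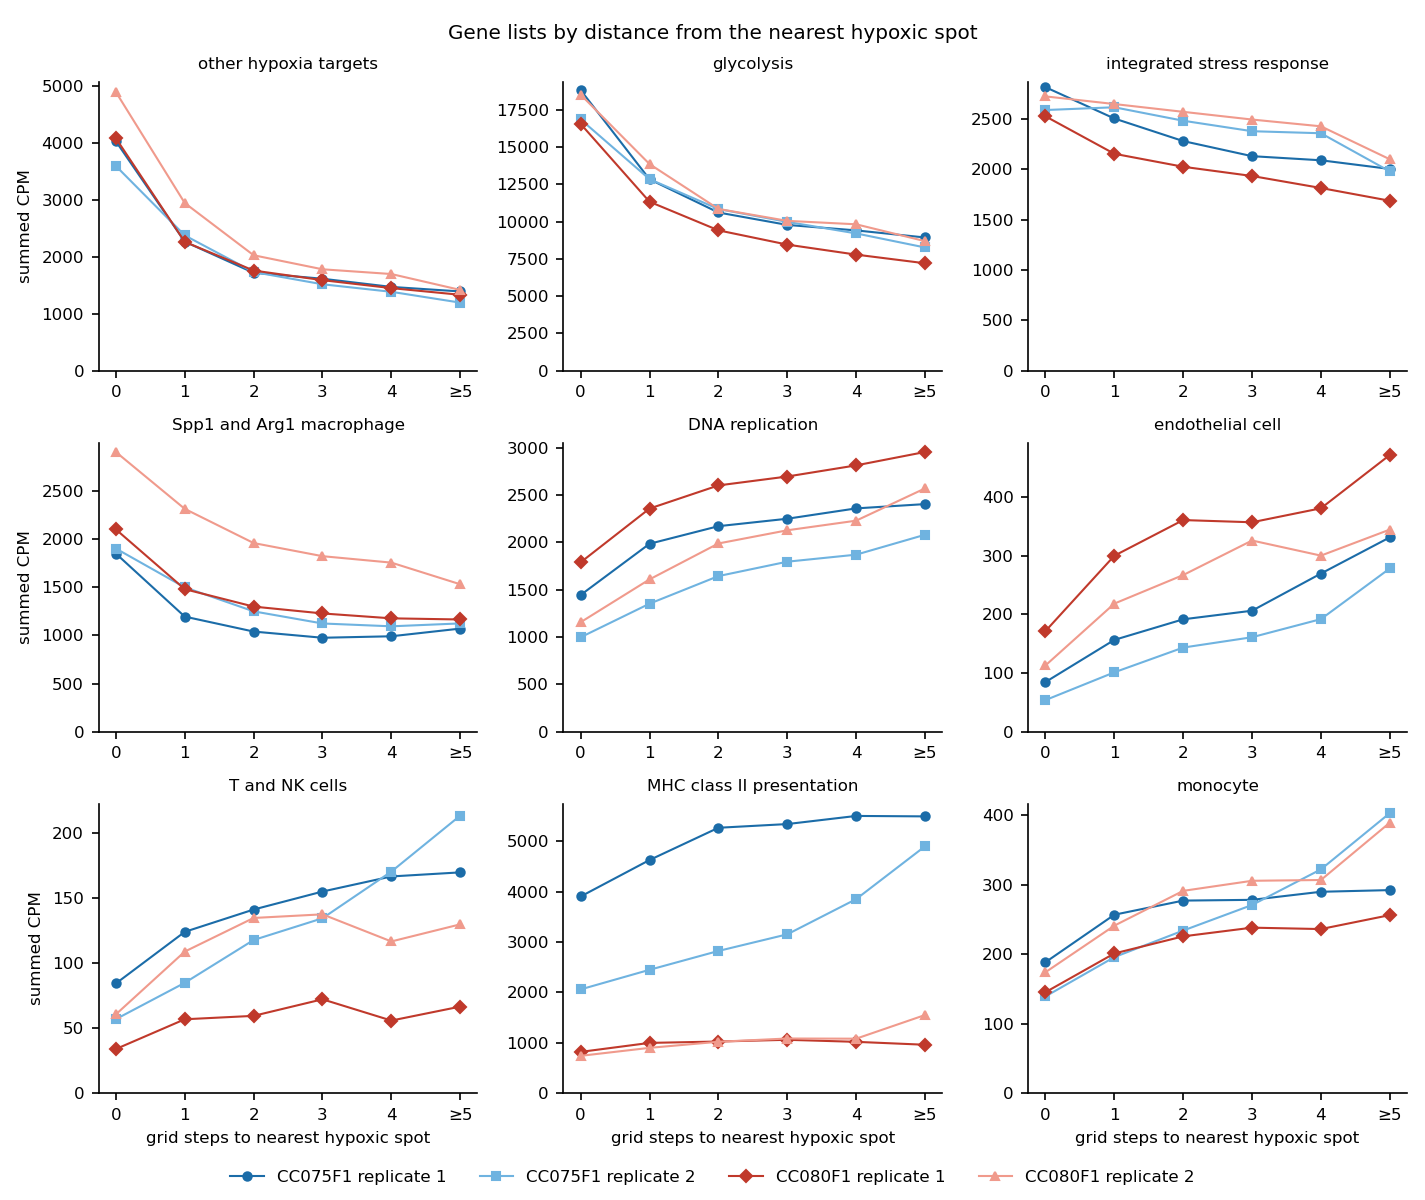
Summed CPM of 9 gene lists against the number of grid steps to the nearest hypoxic spot (0 is the hypoxic spots, the last point 5 steps or more), 1 line for each section. Hypoxia targets and glycolysis decline with distance in every section, endothelial genes are lowest in the hypoxic spots of each, and T and NK cell genes level off in the CC080F1 sections.

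Distance from hypoxic spots gave graded profiles among the spots outside the class. The mean summed level of the other hypoxia targets over the 4 sections was 4147 ± 542 CPM (SD, n = 4) in hypoxic spots, 2460.3 at 1 step, 1808 at 2, 1624 at 3, 1499.5 at 4 and 1333 ± 99.4 at 5 steps or more. For glycolysis the means were 17677, 12712, 10424, 9561, 9050.2 and 8268 CPM. Both lists dropped most within the first step. The endothelial cell list ran the other way, with 106 ± 49.97, 194, 241, 262, 286 and 356 ± 81.9 CPM. DNA replication climbed from 1347 CPM through 1826 at 1 step to 2501 at 5 steps or more. T and NK cells had 58.9 ± 20.6, 93.7, 113, 125, 127 and 145 ± 62.4 CPM, and in both CC080F1 sections the list was highest at 3 steps. MHC class II presentation stood far apart in the 2 strains, at 5492, 4898, 959 and 1549 CPM at 5 steps or more. These profiles are descriptions, since steps are counted from spots chosen by the score.

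Whether the contrast differed by host strain was asked with a class-by-strain term, and 37 of 13586 genes passed (0.272% of those tested, 596 at an unadjusted p under 0.05), 5 with a higher and 32 with a lower log2 ratio in CC075F1. The 5 were Ifi44, Oasl1, Isg15, Phf11d and Cd72, of which Ifi44, Oasl1 and Isg15 belong to the 18 type I interferon genes tested. Isg15, a ubiquitin-like modifier, stood at 75.9, 86.5, 70.9 and 104 CPM in hypoxic spots and 45.8, 75.8, 86.9 and 131 CPM in comparison spots. Its log2 ratio by section was 0.90, 0.64, -0.13 and -0.05 (strain term 0.85 ± 0.13 SE, adjusted p = 0.039). Ifi44 had ratios of 1.39, 0.93, -0.73 and -0.37 (strain term 1.68 ± 0.24 SE, adjusted p = 0.03), Oasl1 of 1.13, 0.84, -0.38 and -0.20 (strain term 1.27 ± 0.20 SE, adjusted p = 0.039), Phf11d of 0.71, 0.47, -0.38 and -0.39 (strain term 0.97 ± 0.16 SE, adjusted p = 0.043) and Cd72, a B cell and myeloid receptor, of 0.74, 0.43, -0.42 and -0.25 (strain term 0.92 ± 0.15 SE, adjusted p = 0.043). Each of the 5 was thus above 0 in the CC075F1 pair and below 0 in the CC080F1 pair. All 5 calls were lost on plain library size, from neighbouring spots, after thinning, and without either CC080F1 section. The type I interferon list as a whole had 3 of 18 higher and none lower in the class contrast over both strains (20.2% and 19.4% of all genes, and for the list 1 higher and 3 lower on plain library size), with Rsad2 (viperin) at 91.2, 34.3, 59.1 and 78.1 CPM in hypoxic spots and 38.4, 12.2, 48.1 and 42.7 CPM in comparison spots, 2.35-fold higher (log2 fold change 1.24 ± 0.18 SE, adjusted p = 6.1e-04), Ifit1 at 0.53 (adjusted p = 0.048) and Bst2 at 0.19 (adjusted p = 0.035), the last turning to -0.08 on plain library size. The Ifit1 call was lost there too, as in DESeq2, from neighbouring spots, with the top 20%, after thinning and without CC075F1 replicate 1, CC075F1 replicate 2 or CC080F1 replicate 2, and its log2 fold change was 0.30 (adjusted p = 0.14) without CC075F1 replicate 2. The Bst2 call was also lost from neighbouring spots, without the filter and after thinning. With the top 20% it was lost too, and without any 1 section but CC075F1 replicate 2.

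**Figure D5:**
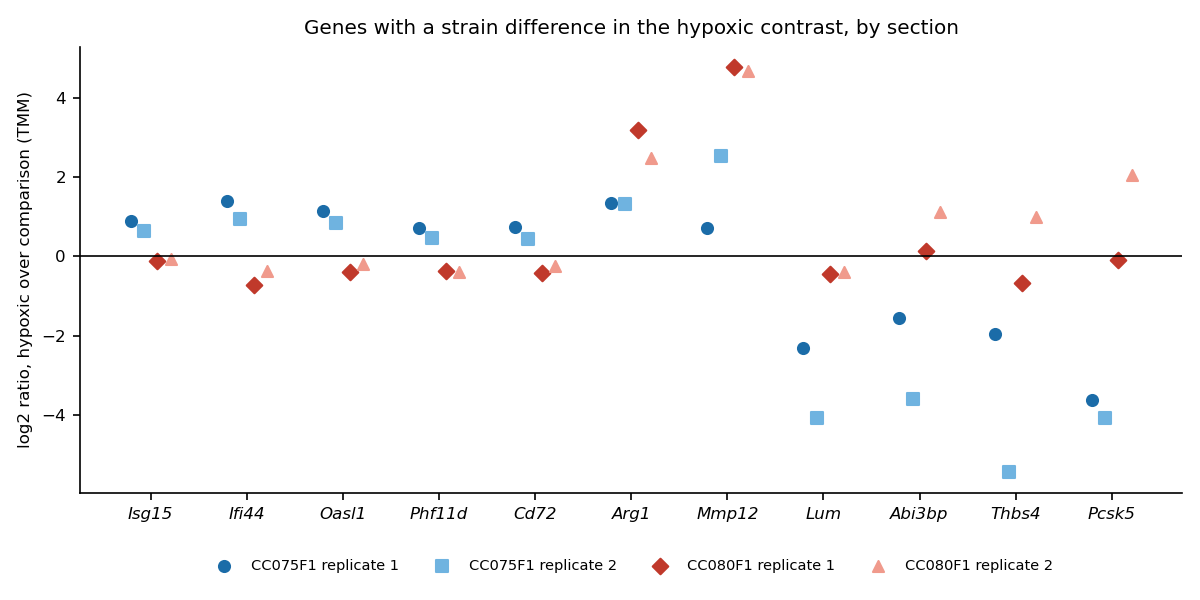
Log2 ratio of hypoxic over comparison spots (TMM-scaled) in each section for 11 genes with an adjusted p under 0.05 for the class-by-strain term. The 5 at the left are above 0 in both CC075F1 sections and below 0 in both CC080F1 sections, and Arg1 and Mmp12 are above 0 in all 4 and higher in CC080F1.

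Among the 32, Arg1 had section ratios of 1.34, 1.32, 3.18 and 2.47 (strain term -1.49 ± 0.20 SE, adjusted p = 0.027) and Mmp12 of 0.72, 2.54, 4.76 and 4.66 (strain term -3.15 ± 0.44 SE, adjusted p = 0.027), so both rose in hypoxic spots of either strain and more in CC080F1. The Arg1 call was lost on plain library size and without CC080F1 replicate 1, that of Mmp12 without either CC080F1 section. Pcsk5, a proprotein convertase, had -3.61, -4.07, -0.09 and 2.04 (strain term -6.56 ± 1.06 SE, adjusted p = 0.043), Thbs4, a thrombospondin, -1.95, -5.44, -0.68 and 1.00 (strain term -5.59 ± 0.92 SE, adjusted p = 0.044), and Abi3bp, a matrix protein, -1.56, -3.60, 0.13 and 1.11 (strain term -4.07 ± 0.67 SE, adjusted p = 0.044). Lum (lumican), of fibroblasts, had -2.31, -4.07, -0.46 and -0.41 (strain term -3.06 ± 0.38 SE, adjusted p = 0.022). The calls of Pcsk5, Thbs4 and Abi3bp were lost on plain library size, from neighbouring spots and without CC075F1 replicate 2 or CC080F1 replicate 2, those of Thbs4 and Abi3bp also without CC080F1 replicate 1. Without CC075F1 replicate 2 the strain term was -2.67 (adjusted p = 0.84) for Thbs4 and -2.55 (adjusted p = 0.52) for Abi3bp. The Lum call was lost from neighbouring spots, after thinning and without either CC080F1 section. Acta1 and Myl1, of skeletal muscle, had 0.04, -5.46, -1.05 and -0.49 and -1.06, -4.94, -0.21 and -0.80 (strain term -4.39 ± 0.48 SE, adjusted p = 0.011 and strain term -4.77 ± 0.74 SE, adjusted p = 0.039), and their comparison level was high in CC075F1 replicate 2. Both calls were lost without CC080F1 replicate 2 (Acta1 also from neighbouring spots, Myl1 also on plain library size). They were also lost with a replicate block, which lets the class contrast differ by replicate number, at -1.92 for Acta1 and -2.66 for Myl1. The Acta1 ratio of CC075F1 replicate 1, 0.04, was above those of both CC080F1 sections. In the comparison spots of CC075F1 replicate 2 muscle genes summed to 358 CPM. Whether that muscle tissue bears on the matrix genes was not tested. The strain calls numbered 429 without CC075F1 replicate 1, 81 without CC075F1 replicate 2, 13 without CC080F1 replicate 1 and 1 without CC080F1 replicate 2. With the class set by neighbouring spots they numbered 5, and on plain library size 12, and with 2 tumors of each strain a difference between strains cannot be told apart from one of tumors.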

How the data were processed

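Visium spatial transcriptomes of 4 MC38 tumor sections were analysed. The authors aligned reads to GRCm38 with Space Ranger 1.3.1 and deposited raw UMI counts per gene and spot with spot positions. Here spots with at least 5000 UMIs were classed within each section, UMIs were summed per class and section, filterByExpr removed genes of low counts, and the rest entered a quasi-likelihood fit (edgeR 4.0.16, limma 3.58.1, R 4.3.3) with TMM factors, section and class, or section, class and class-by-strain. The threshold was a Benjamini-Hochberg adjusted p of 0.05. Section values were tested by exact permutation. DESeq2 1.42.0, scaling, filters, class limits, thinning, depth matching, interior spots, neighbour-set classes and leaving out sections were alternatives. The fits were first tested on simulated counts.

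The members, gene lists and tests were chosen with earlier results of these data known. Named genes were up to 12 rises and 12 falls of at least 10 CPM with 1 sign in 4 sections, up to 4 called genes of at least 5 CPM and the 2 most abundant of each list, HIF machinery, and 5 strain terms in each direction. Gene positions came from GENCODE vM21 and promoters from RefSeq, both on GRCm38. A spot is no replicate. The replicates are the sections, 4 in the class contrast and 2 per strain in the strain term. In the edgeR fits the spread of a gene is moderated toward that of other genes. Gene p-values thus do not rest on the gene's own spread alone.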

Additional observations from a re-analysis of the deposited data

Results flagged for a closer look

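Of 204 sets of 4 section values examined, 14 had a section whose gap to the nearest other, divided by the range, exceeded Dixon's 95% critical value, which chance gives in about 1 in 20. For the log2 ratio of hypoxic over comparison spots, Mylpf had -4.62 in CC075F1 replicate 2 (others -0.66 to -0.05), Rgs5 had -3.33 in CC075F1 replicate 2 (others -2.21 to -2.11), Serpine2 had -3.16 in CC075F1 replicate 2 (others -1.91 to -1.72), Vldlr had 3.26 in CC080F1 replicate 1 (others 2.37 to 2.42). In the same measure, Ndufa6 had 0.25 in CC075F1 replicate 1 (others 0.50 to 0.54), Pcna had -0.82 in CC080F1 replicate 2 (others -0.45 to -0.40), Trib3 had 2.68 in CC080F1 replicate 1 (others 2.01 to 2.05), Hmox1 had 2.91 in CC075F1 replicate 1 (others 2.45 to 2.47). Further, Slc16a3 had 1.37 in CC075F1 replicate 2 (others 1.75 to 1.79), Pgf had 3.08 in CC080F1 replicate 2 (others 2.13 to 2.18), Tnni2 had -3.07 in CC075F1 replicate 2 (others -0.38 to 0.08), Neat1 had 1.39 in CC080F1 replicate 2 (others 0.68 to 0.75), Malat1 had 1.76 in CC080F1 replicate 2 (others 0.36 to 0.52). CC075F1 replicate 2 stood apart for the muscle genes Mylpf and Tnni2, the pericyte gene Rgs5, Serpine2 and Slc16a3. Among neighbours of hypoxic spots, 60.2% were hypoxic in CC080F1 replicate 1, against 45.6% to 47.6% in the other sections.

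The class contrast differed between strains for 37 genes by the class-by-strain term (log2 ratio in CC075F1 minus CC080F1). Those named above were Mmp12 at -3.15, Isg15 at 0.85, Arg1 at -1.49, Lum at -3.06, Acta1 at -4.39, Myl1 at -4.77, Ifi44 at 1.68, Oasl1 at 1.27, Phf11d at 0.97, Cd72 at 0.92, Pcsk5 at -6.56, Thbs4 at -5.59, Abi3bp at -4.07.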

How the results depend on the processing

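The 5381 genes called became 896 without the section block and 1704 after thinning, and 3558 to 4747 without 1 section, the lowest without CC080F1 replicate 2. The other alternatives kept the count within 1.5 times of 5381, and genes called both above and under an alternative had the same sign in each of them. The no-filter fit split into 2572 higher and 3041 lower. The 37 strain calls became 12 on plain library size, 5 from neighbouring spots, 199 without the filter, 9 after thinning, and 1 to 429 without 1 section. With the replicate block they were 231. Over genes, same-numbered sections of the strains deviated together with a correlation of 0.071. With 2 sections per strain this is a single value and cannot tell whether same-numbered sections share a batch. Without 1 section the log2 ratio of UMIs per spot was -0.12 to 0.28, the edge difference -12.4 to -1.54 percentage points, and the level of the 6 genes in CC075F1 minus CC080F1, -17.0 CPM, was -49.1 to 15.1 CPM, changing sign without CC080F1 replicate 2. Hypoxic spots had 4.94 times the section's share of hypoxic neighbours, 3.10 times with the top 20%, and 4.61 to 5.06 without 1 section. Of 165 named genes called, 54 stayed called in every alternative, and 124 in every one but the thinned and unblocked fits. Of 2964 gene values under an alternative, 8 changed sign with a call on either side, all but 1 on plain library size. These were Mdh2 -0.23, Cox6c -0.21, Hsp90b1 -0.16, Slc4a7 -0.0044, Bst2 -0.0788, H2-D1 -0.0271 and H2-K1 -0.0391, and Slc4a7 -0.0544 after thinning. A further 36 changed sign while called in neither. The cause of the changes was not tested.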

Other observations

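Cholesterol synthesis did not move with the class as a list, with 2 of 21 genes lower and none higher (19.4% and 20.2% of all genes). Dhcr7, of the last steps of the pathway, was at -0.47 (adjusted p = 0.0046), while Fdps, an earlier enzyme, was at 0.07 (adjusted p = 0.74). With the spots of each section cut into 10 equal bins of the score, the mean summed level of cholesterol synthesis was 1153 CPM in bin 1 (lowest), 1207 in bin 5, 1232 in bin 8, 1210.5 in bin 9 and 1012 in bin 10 (hypoxic), but the sections went opposite ways. In CC080F1 replicate 1 the summed level was 1672 CPM in hypoxic and 1239 CPM in comparison spots, while the other sections were lower in hypoxic spots, with 1088, 627 and 661 CPM against 1466, 1011 and 946 CPM. The integrated stress response had 1780.5, 2109, 2529.8, 2646 and 2664 CPM in the same bins, whereas the other hypoxia targets had 1217, 1449.6, 2191, 2818 and 4147 CPM, a steeper climb at the top. The bins were set by the defining genes and these values are a description with no test.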
